A study of Mus musculus with 20 samples.

Results

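The 31 genes described here encode proteins by which megakaryocytes and platelets are known, and each was found by its symbol among the 21631 protein-coding genes of chromosomes 1 to 19 and X in mm10. A peak was given to a gene when at least 1 bp of it lay within 1 kb of either end of the gene, or when it lay inside the gene and over 1 kb from both ends. All cells were sorted hematopoietic stem cells (HSC), taken from adult mice after poly(I:C) treatment, which induces the Mx1-Cre transgene. In KO mice (Mx1-Cre+/-;mTORflox/flox) this deletes the floxed part of Mtor, in KO MycHet mice (Mx1-Cre+/-;mTORflox/flox;c-Myc+/flox) it also deletes 1 allele of c-Myc, and WT mice (Mx1-Cre-/-;mTORflox/flox) carried the floxed Mtor alleles and got poly(I:C) but had no Cre. The Mx1 promoter answers to interferon in many cell types, so the deletion need not be limited to stem cells.

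Peak lists of 12 libraries were used. Chromatin immunoprecipitation (ChIP-seq) of the histone marks H3K27ac and H3K4me3 and of the transcription factor MYC gave 1 KO and 1 WT library for each of the 3 targets. ATAC-seq, which maps open chromatin by the insertion of a transposase, gave 2 KO, 2 KO MycHet and 2 WT libraries of 50000 sorted cells each. RNA-seq of 4 KO and 4 WT samples was not analysed here. Read depth is unknown, because peak lists hold no counts. The score printed for a peak is the value the authors' peak caller gave it. No list holds a score below 50 and its scale is not stated, so it ranks peaks within a list, and scores of different lists stand side by side without being compared. With 1 ChIP-seq library per genotype there is no replicate check and no test. A two-sided exact permutation test of 2 against 2 ATAC-seq libraries cannot give a p below 0.333, so no p-value is given and counts are set beside the same counts over all 21631 genes.

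The libraries differed in length before any gene was considered. The H3K27ac lists held 20036 peaks with a median width of 1237 bp in KO and 10078 peaks with a median width of 333 bp in WT. The MYC lists held 22086 peaks in KO and 8774 in WT, and the H3K4me3 lists 16019 in KO and 15089 in WT. Among the ATAC-seq libraries, number 1 was short in both KO (19174 peaks) and WT (17303), number 2 was long in both KO (72149) and WT (66531), and the KO MycHet libraries held 47214 and 53722 peaks. The targeted gene, Mtor, had a peak at its lower-coordinate end in 0 of 7 KO and KO MycHet libraries and in 5 of 5 WT libraries. In a sorted population, a region marked in fewer cells and a region marked less in each cell cannot be told apart.

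Megakaryocytes arise from stem cells in the bone marrow, fill granules with chemokines and adhesive proteins, and shed platelets. Platelets catch on von Willebrand factor and collagen through surface glycoproteins, are activated by thrombin, ADP and thromboxane, and bind fibrinogen through the integrin made of Itga2b and Itgb3. Many of these genes are controlled by GATA1 with its partner FOG1 (Zfpm1), by RUNX1 and by ETS factors. In mice, part of the adult stem cells already carry Vwf and Itga2b transcripts and are biased toward platelet output. H3K4me3 marks active promoters, H3K27ac marks active promoters and enhancers, and MYC binds E-boxes in the promoters of growth genes.

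The 250 bases before the annotated start are shown for 6 of the 31 genes. Gp1ba, Itga2b, F2r, Zfpm1 and Pf4 are the members whose stretch was overlapped by a MYC peak, and Gp5 is added because its stretch holds a pair of GATA letters as that of Gp1ba does. The sequences are from RefSeq (GRCm38.p6, the assembly of mm10), run 5′ to 3′ on the gene's strand, and carry in capitals the letters searched for on both strands: AGATAA or TGATAA for GATA factors, CCGGAA for ETS factors, TGTGGT for RUNX factors and CACGTG for MYC.
Gp1ba: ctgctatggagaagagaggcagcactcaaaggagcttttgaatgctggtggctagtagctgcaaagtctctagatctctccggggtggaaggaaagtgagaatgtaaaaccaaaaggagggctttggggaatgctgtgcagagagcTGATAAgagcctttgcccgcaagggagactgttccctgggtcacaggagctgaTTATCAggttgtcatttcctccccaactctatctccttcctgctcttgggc
Gp5: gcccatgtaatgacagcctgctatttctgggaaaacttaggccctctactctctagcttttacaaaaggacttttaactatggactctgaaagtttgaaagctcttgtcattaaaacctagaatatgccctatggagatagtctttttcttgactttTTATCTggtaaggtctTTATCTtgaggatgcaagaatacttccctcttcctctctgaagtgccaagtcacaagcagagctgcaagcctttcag
F2r: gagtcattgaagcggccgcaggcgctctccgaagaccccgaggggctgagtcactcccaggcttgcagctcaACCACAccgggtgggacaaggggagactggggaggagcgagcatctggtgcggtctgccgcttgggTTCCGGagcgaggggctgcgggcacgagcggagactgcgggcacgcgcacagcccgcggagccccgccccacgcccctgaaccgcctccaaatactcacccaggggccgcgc
Itga2b: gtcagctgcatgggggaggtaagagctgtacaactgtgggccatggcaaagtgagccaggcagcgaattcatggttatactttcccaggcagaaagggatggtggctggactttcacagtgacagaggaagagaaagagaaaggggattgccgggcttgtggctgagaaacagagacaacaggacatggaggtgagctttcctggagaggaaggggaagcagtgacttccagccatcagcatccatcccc
Pf4: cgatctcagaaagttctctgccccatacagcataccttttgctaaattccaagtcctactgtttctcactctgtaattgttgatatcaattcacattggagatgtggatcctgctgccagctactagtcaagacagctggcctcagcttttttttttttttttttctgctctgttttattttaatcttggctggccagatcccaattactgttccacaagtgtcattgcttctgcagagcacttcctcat
Zfpm1: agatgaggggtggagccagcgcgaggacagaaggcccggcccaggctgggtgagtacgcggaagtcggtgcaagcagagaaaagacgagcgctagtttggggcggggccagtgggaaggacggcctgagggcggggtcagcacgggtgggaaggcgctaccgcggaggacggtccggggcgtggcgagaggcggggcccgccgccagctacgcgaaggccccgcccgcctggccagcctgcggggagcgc

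The Gp1ba stretch lies at chr11:70638872-70639121 on the plus strand, and its capitals are TGATAA and, from the other strand, TTATCA. The Gp5 stretch lies at chr16:30310782-30311031 on the minus strand and holds TTATCT at 2 places. The F2r stretch lies at chr13:95618467-95618716 on the minus strand and holds the RUNX letters (as ACCACA) and the ETS letters (as TTCCGG). The stretches of Itga2b (chr11:102469884-102470133, minus strand), Pf4 (chr5:90772185-90772434, plus strand) and Zfpm1 (chr8:122281891-122282140, plus strand) hold none of the searched letters, which says only that these letters are not in this window. Annotated starts were found for 27 of the 31 members. GATA letters were in the stretch of 6 of 27 members (22.2%) and in 14.5% of 21045 promoters, ETS letters in 2 (7.41%) and 15.1%, RUNX letters in 3 (11.1%) and 12.2%, and the E-box in 2 (7.41%) and 6.7%. Besides Gp1ba and Gp5, the GATA letters were in Mmrn1, Clec1b, Gp6 and Mrvi1, and the E-box was in P2ry12 and Treml1, neither of which had a MYC peak at an end in either genotype.

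At gene ends, H3K27ac was found at more members in the KO library than in the WT library. It lay at an end of 11 of 31 members in KO (35.5%, against 39.6% of all genes) and of 2 in WT (6.45%, against 14.6%). Itga2b, Gp1ba, Gp9, F2r, Selp, Clec1b, Zfpm1, P2ry12 and F5 had it in KO only, which makes 9 members (29.0%), while 25.8% of all genes were KO only. Plek and Fermt3 had it in both genotypes, and no member had it in WT only, against 0.767% of all genes. The members' KO-only share is near that of all genes, and their share in WT is below it. The count changed when the lists were made equally long. Such a trim equalises the number of peaks and not their width (median 1237 bp in KO and 333 bp in WT before it), and the cause of the change was not tested. With the KO list trimmed to its 10078 highest-scoring peaks, 5 members kept an end peak in KO and 2 in WT, and Gp1ba, F2r, P2ry12 and Clec1b were KO only (18.4% of all genes were), while Itga2b, Gp9, Selp, Zfpm1 and F5 no longer had an end peak in KO. Plek was then WT only (1.78% of all genes were).

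H3K4me3 at the ends was almost the same set of genes in both genotypes. It lay at an end of 16 members in KO (51.6%, against 54.3% of all genes) and 17 in WT (54.8%, against 52.9%), and 15 members were shared. Gp1ba had it in KO only (2.94% of all genes did), and Pf4 and Gp1bb in WT only (1.52% of all genes did). Nbeal2 was shared through its far end, which is also an end of Nradd, and at its start H3K4me3 was found in WT only (99.8). Among the 15 members with H3K4me3 in both genotypes, 4 (Itga2b, F2r, Selp and Zfpm1) had H3K27ac at an end in KO only, while 46.7% of the 11109 such genes did. Conversely, of the 9 members with H3K27ac in KO only, 4 (Gp9, Clec1b, P2ry12 and F5) had no H3K4me3 at an end in either genotype. Over all genes, 247 of 5573 KO-only genes (4.43%) lacked H3K4me3 in that way. Of the 4 members, Gp9 and F5 had no H3K27ac end peak in KO with lists of equal length. The Clec1b peak lay at its far end and overlapped a WT peak (53.2) outside the window. The 247 genes were not checked for such limits.

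MYC lay at an end of 5 members in each genotype (16.1%), against 22.3% of all genes in KO and 10.3% in WT. Itga2b and F2r were shared. Gp1ba, Fermt3 and Zfpm1 had the peak in KO only (14.4% of all genes did) and Pf4, Gp9 and Itga2 in WT only (2.35% of all genes did). The Itga2 peak reaches only the edge of the 1 kb window at the far end of the gene. With an overlap of 200 bp or more, 4 members had MYC at an end in WT. With lists of equal length, 3 members had it in KO (11.4% of all genes did) and 5 in WT (10.3% did). Fermt3 and Zfpm1 were then KO only (5.67% of all genes were), and F2r joined Pf4, Gp9 and Itga2 as WT only (4.59% of all genes were). All 4 assays, counting ATAC-seq when at least 1 library had a peak, met at an end of Gp1ba, Itga2b, F2r, Fermt3 and Zfpm1 in KO (5 of 31, with 18.5% of all genes) and of no member in WT (5.4% of all genes).

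**Figure D1:**
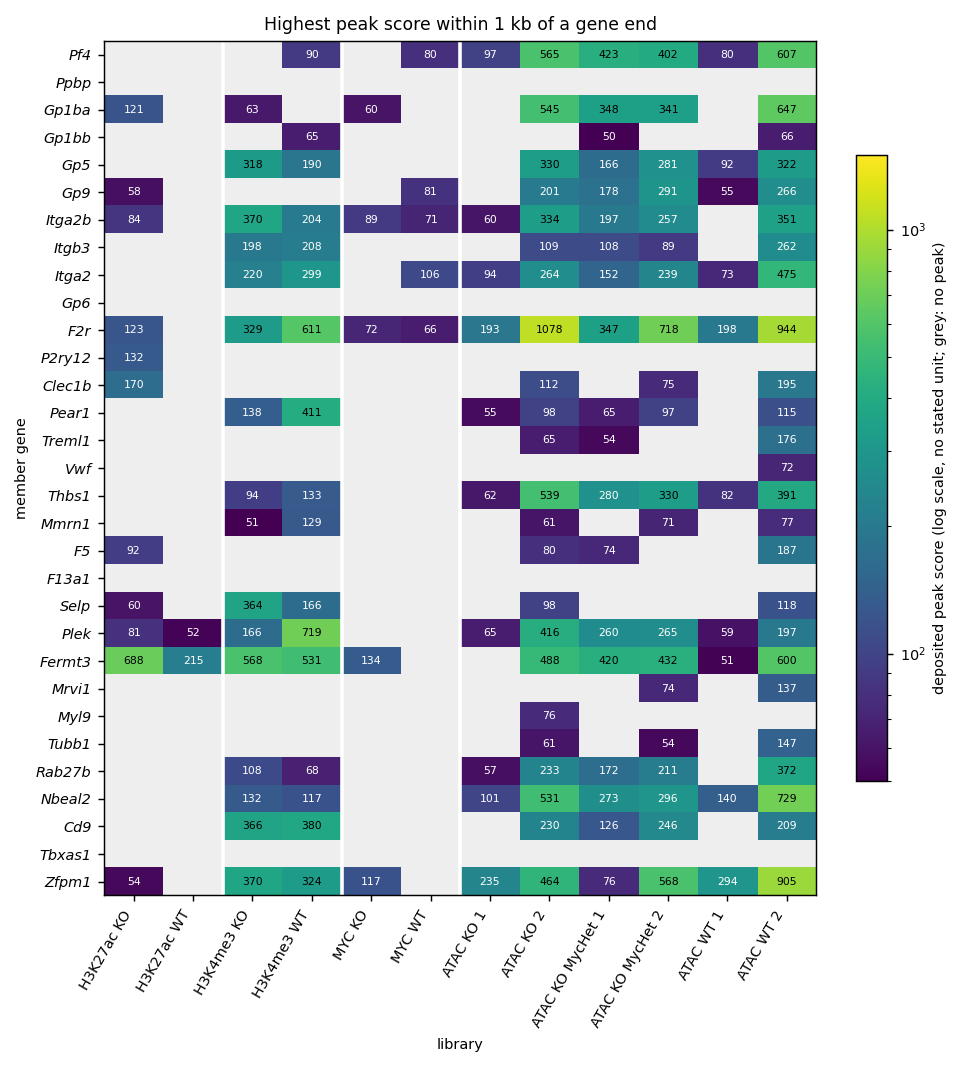
Highest deposited peak score within 1 kb of either end of each of the 31 genes (rows) in each of the 12 libraries (columns), with colour on a log scale and grey for no peak. H3K27ac is filled for 11 genes in KO and 2 in WT, H3K4me3 for 16 in KO and 17 in WT, MYC for 5 in each, and ATAC-seq for 10 in the first KO and the first WT library and for 23 in the second KO and 25 in the second WT library.

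Inside the genes, a larger share of members than of all genes had a peak in each of the 12 libraries. H3K27ac lay inside 16 members in KO (51.6%, against 18.9% of all genes) and 7 in WT (22.6%, against 11.7%). Itga2b, Itgb3, Rab27b, Nbeal2, Plek, Pear1, Zfpm1, P2ry12 and F13a1 had it in KO only (9 members, 29.0%, against 11.3% of all genes), and no member had it in WT only (4.13% of all genes did). Vwf, Selp, Mrvi1, Cd9, Mmrn1, Tbxas1 and Itga2 had it in both. The difference between genotypes did not hold with lists of equal length: 6 members then had an inside peak in KO (9.27% of all genes did) and 7 in WT (11.7% did). Plek was then KO only (4.26% of all genes were), and Itga2 and Mmrn1 were WT only (6.71% of all genes were). With only scores of 100 or more, it was 6 in KO (9.7% of all genes) and 0 in WT (2.13%). A score of 100 lies below the median of the KO list (104) and above that of the WT list (66.2), so this cut is not an equal one.

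MYC lay inside 10 members in KO (32.3%, against 22.3% of all genes) and 7 in WT (22.6%, against 11.1%). Itgb3, Vwf, Cd9, Zfpm1 and F5 had it in KO only (14.2% of all genes did), Gp6 and Pear1 in WT only (3.0% of all genes did), and Selp, Mrvi1, Plek, Tbxas1 and Itga2 in both. With lists of equal length 7 members had an inside MYC peak in each genotype (11.4% of all genes in KO and 11.1% in WT), with 3 in KO only (5.99% of all genes) and 3 in WT only (5.65%). In the 5 members with an inside MYC peak in both genotypes, 2 of 10 such peaks in KO overlapped a WT peak. The same share over all genes was not counted, and the KO list is far longer than the WT list (22086 against 8774 peaks). The count therefore cannot be read as particular to the members.

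H3K4me3 lay inside 6 members in KO (19.4%, against 11.3% of all genes) and 5 in WT (16.1%, against 10.7%). Itga2b was KO only (1.95% of all genes were), no member was WT only (1.35% of all genes were), and Vwf, Rab27b, Nbeal2, Tbxas1 and F5 had it in both.

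Length bears on the inside counts, since the members' median length is 29.4 kb and that of all genes 17.3 kb. Per 100 kb of gene interior, the members held 2.09 H3K27ac peaks in KO and 0.696 in WT, against 0.686 in KO and 0.334 in WT over all genes. For MYC the members held 1.39 in KO and 0.626 in WT, and all genes 0.852 in KO and 0.324 in WT. Among genes of at least the members' median length, 14 of 16 members had an H3K27ac peak inside in KO (40.8% of 7627 genes did) and 7 of 16 in WT (26.2% did). The members' inside density was thus above that of all genes for each of these lists, in KO and in WT alike. The 30 inside H3K27ac peaks of KO lay mostly on open chromatin: 23 overlapped an ATAC-seq peak of a KO or WT library and 6 overlapped none of the 6 libraries. Of the 20 inside MYC peaks in KO, 10 overlapped no ATAC-seq peak, against 3 of 9 in WT. Overlap with open chromatin was not counted for the inside peaks of all genes, so these values are not shown to be particular to the members.

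**Figure D2:**
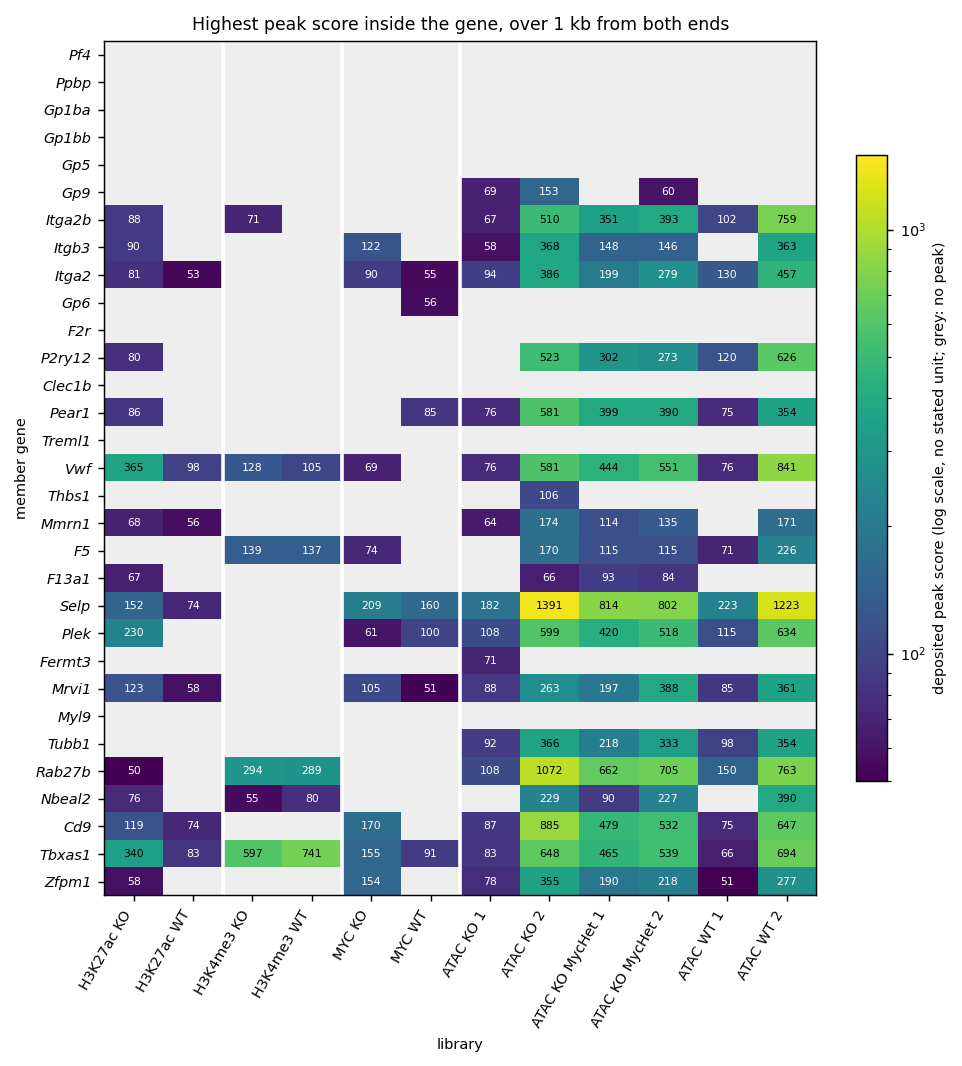
Highest deposited peak score inside each of the 31 genes, over 1 kb from both ends, in each of the 12 libraries, with colour on a log scale and grey for no peak. H3K27ac is filled for 16 genes in KO and 7 in WT, and Selp has the top ATAC-seq scores (1391 in the second KO and 1223 in the second WT library).

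**Figure D3:**
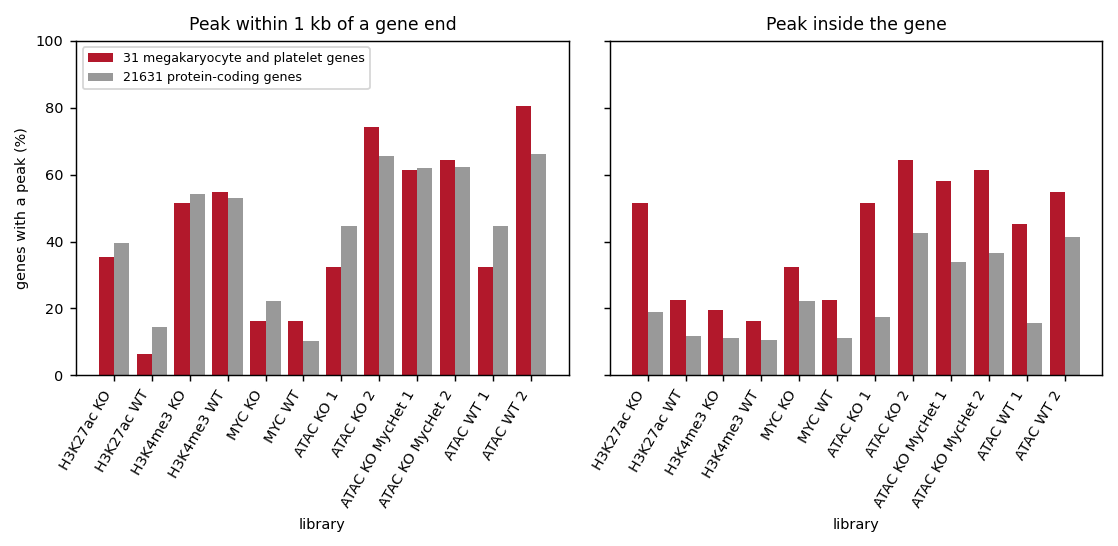
Share of the 31 members and of all 21631 genes with a peak at an end (left) and inside the gene (right) in each library, in percent. At ends the members lie below all genes for H3K27ac in KO (35.5% and 39.6%) and WT (6.45% and 14.6%), and inside they lie above in all 12 libraries, for example at 51.6% and 18.9% for H3K27ac in KO.

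The granule chemokines had no H3K27ac in either genotype. Pf4 (chr5:90772435-90773383, gene ID 56744), which encodes platelet factor 4, is 949 bp long and had an ATAC-seq peak in all 6 libraries. These scored 96.7 and 565 in KO, 423 and 402 in KO MycHet, and 80.3 and 607 in WT. H3K4me3 (score 89.7) and MYC (79.6) were found there in WT only, and the MYC peak spanned the promoter stretch printed above. Ppbp, which encodes the chemokine CXCL7 and lies beside Pf4, had no peak in any of the 12 libraries, at an end or inside.

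The GPIb-IX-V complex is the platelet receptor for von Willebrand factor, and its 4 genes are short. Gp1ba (chr11:70639102-70643986, ID 14723), which encodes the ligand-binding chain, had all 3 ChIP targets at its start in KO and none in WT. The scores in KO were 121 for H3K27ac, 63.0 for H3K4me3 and 59.9 for MYC. The MYC peak spanned the whole printed promoter stretch with its pair of GATA letters. The H3K4me3 score is in the lower end of its list, at the top 93.3%, and the MYC score is at the top 71.5%. The start was open in both genotypes, with ATAC-seq scores of 545 in the second KO library, 348 and 341 in KO MycHet, and 647 in the second WT library, and with no peak in the first KO and WT libraries.

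The other 3 chains of the complex differed from Gp1ba and from each other. Gp9 (chr6:87776131-87779786, ID 54368) had H3K27ac (57.8) in KO only and MYC (81.4) in WT only, both at its lower end, which lies 1.9 kb before the annotated start used for its promoter. That end was open with scores of 201 in the second KO library, 178 and 291 in KO MycHet, and 54.7 and 230 in WT. Gp5 (chr16:30307685-30310781, ID 14729) had H3K4me3 in both genotypes (318 in KO and 190 in WT) and neither H3K27ac nor MYC. Its printed promoter lies under both H3K4me3 peaks, and the KO peak also reaches an end of Atp13a3. Gp1bb had H3K4me3 (65.2) in WT only, and ATAC-seq peaks in the first KO MycHet library (50.5) and the second WT library (65.9), all within 1 kb of an end of Septin5 as well.

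Of the integrin and collagen receptors, Itga2b (chr11:102453297-102469883, ID 16399), the alpha chain of the fibrinogen receptor, had all 4 assays at its start in KO. H3K27ac was found in KO only, with 84.3 at the start and 87.5 at 1.9 kb into the gene. H3K4me3 scored 370 in KO and 204 in WT, and MYC scored 89.0 in KO and 70.9 in WT, with both MYC peaks over the printed promoter stretch. A further H3K4me3 peak at 13.7 kb into the gene was found in KO only (71.1), and that place was open in all 6 libraries (66.9 and 478 in KO, 293 and 393 in KO MycHet, and 77.8 and 759 in WT). Itga2b was the member with an inside H3K4me3 peak in KO only.

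**Figure D4:**
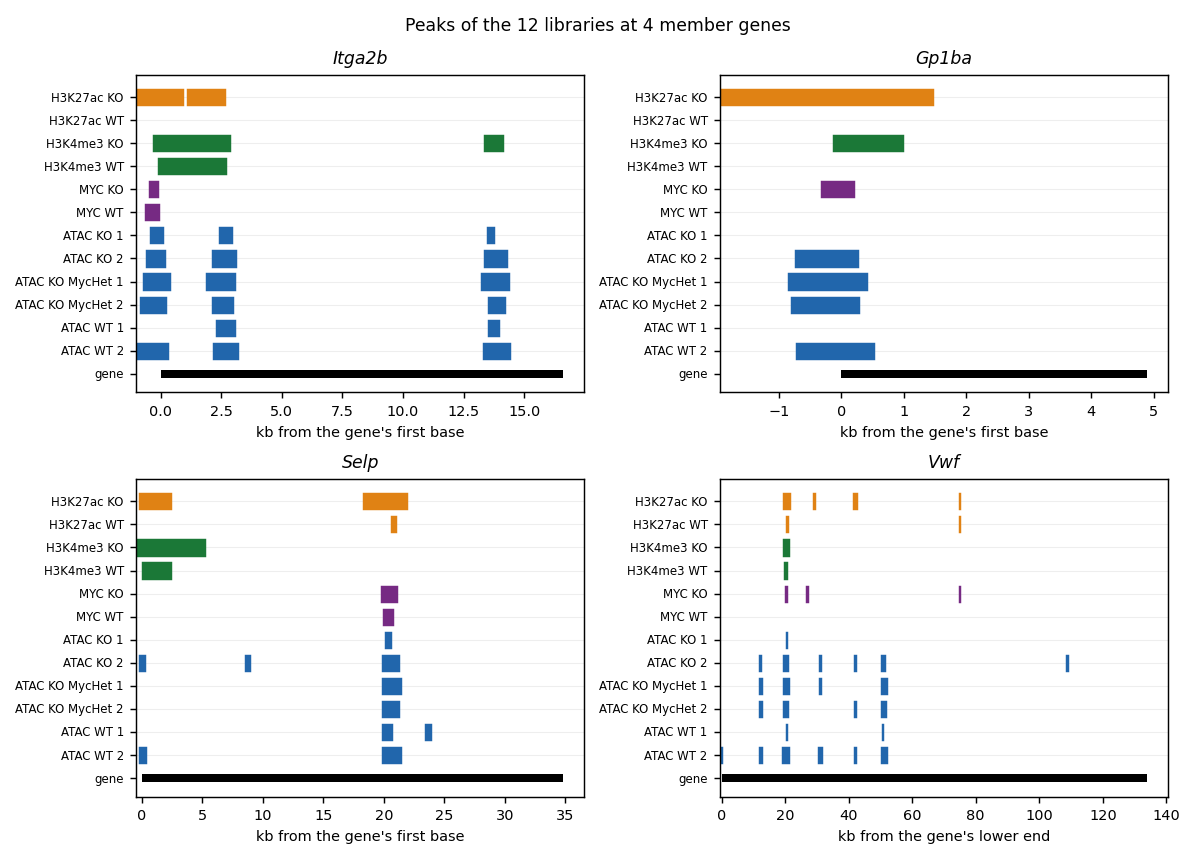
Peaks of the 12 libraries at Itga2b, Gp1ba, Selp and Vwf, drawn to scale as bars along each gene, in kb from the gene's first base (for Vwf, from its lower-coordinate end). H3K27ac bars stand at the starts of Itga2b, Gp1ba and Selp in KO and not in WT, while Selp and Vwf share a region about 20 kb in that holds bars in both genotypes.

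Itgb3 (chr11:104608000-104670476, ID 16416), the beta chain of that receptor, had H3K4me3 at its lower end in both genotypes (198 in KO and 208 in WT) and no H3K27ac there. Inside it had a pair of H3K27ac peaks (74.8 and 89.7) and 4 MYC peaks (between 54.8 and 122) in KO, and no inside peak of either target in WT. The MYC and H3K27ac peaks at 28.7 and 29.1 kb overlap in position, over a region open at 368 in the second KO library, 87.0 and 106 in KO MycHet, and 363 in the second WT library. Itga2, a chain of a collagen-binding integrin, had H3K4me3 at its start in both genotypes (220 in KO and 299 in WT) and MYC in WT only at its far end (106). Inside, its single H3K27ac peak in KO (80.9) and the pair in WT (51.5 and 53.0) lay at different places. Gp6, the collagen receptor glycoprotein VI, had only 1 peak in the 12 libraries, an inside MYC peak in WT (56.2) away from open chromatin.

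Among the signalling receptors, F2r (chr13:95601780-95618466, ID 14062), the thrombin receptor PAR1 that acts on human platelets, had all 4 assays at its start in KO. H3K27ac (123) was KO only. H3K4me3 scored 329 in KO and 611 in WT, and MYC scored 72.2 in KO and 65.5 in WT, with both MYC peaks over the printed stretch. The start was open in all 6 libraries (193 and 1078 in KO, 347 and 718 in KO MycHet, and 198 and 944 in WT). P2ry12 (chr3:59216271-59262985, ID 70839), the ADP receptor, had H3K27ac in KO only, both near its start (132) and inside (79.9). It had no H3K4me3 and no MYC peak in either genotype. The region 2.0 kb into the gene, under the first of these peaks, was open at 523 in the second KO library, 302 and 273 in KO MycHet, and 120 and 626 in WT.

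Clec1b (chr6:129397297-129405413, ID 56760), the receptor CLEC-2 for podoplanin, had an H3K27ac peak in KO (170) at its far end, which is also within 1 kb of an end of Clec9a. That KO peak overlapped a WT peak (53.2) lying outside the 1 kb window of Clec1b, so the KO-only call there depends on the edge of the window. Pear1, a receptor that signals on platelet contact, had H3K4me3 at its start in both genotypes (138 in KO and 411 in WT). At 3.9 kb into the gene a region open in all 6 libraries carried H3K27ac in KO only (85.6) and MYC in WT only (85.1). Treml1, an alpha-granule receptor, had ATAC-seq peaks and nothing else.

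The adhesive and clotting proteins had no MYC peak at any end. Vwf (chr6:125552948-125686679, ID 22371), which encodes von Willebrand factor, had no ChIP-seq peak at an end, and at its ends only 1 ATAC-seq peak, in the second WT library (72.0). About 20 kb from its lower end it had a region with both histone marks in both genotypes. H3K27ac scored 365 in KO and 98.4 in WT there, which puts it in the top 6.72% of the KO list and the top 18.1% of the WT list. H3K4me3 scored 128 in KO and 105 in WT, and MYC 62.4 in KO with no peak in WT. A further place at 74.9 kb had H3K27ac in both genotypes (87.0 in KO and 65.3 in WT) and MYC in KO only (61.8), and overlapped no ATAC-seq peak. The 20 kb region was open in all 6 libraries, at 76.4 and 581 in KO, 444 and 551 in KO MycHet, and 55.6 and 841 in WT.

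Selp (chr1:164115264-164150026, ID 20344), which encodes the granule adhesion protein P-selectin, had H3K27ac at its start in KO only (59.5) and H3K4me3 there in both genotypes (364 in KO and 166 in WT). About 20 kb inside it had a second place, with H3K27ac at 152 in KO and 73.9 in WT and MYC at 209 in KO and 160 in WT. The MYC peaks there were in the top 4.94% of the KO list and the top 6.96% of the WT list. It was open in all 6 libraries, at 182 and 1391 in KO, 814 and 802 in KO MycHet, and 223 and 1223 in WT. The Vwf and Selp regions were thus marked in both genotypes. With only scores of 100 or more their H3K27ac was KO only. That cut takes a larger part of the WT list, whose median H3K27ac score was 66.2 against 104 in KO.

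F5 (chr1:164151835-164220277, ID 14067), coagulation factor V and the neighbour of Selp, had H3K27ac near its start in KO only (92.2) and a MYC peak inside in KO only (73.6). A pair of inside H3K4me3 peaks was found in both genotypes, with scores of 139 and 93.8 in KO and 137 and 71.6 in WT. Thbs1 (thrombospondin 1) had H3K4me3 at its lower end in both genotypes (94.0 in KO and 133 in WT), was open there in all 6 libraries, and had no H3K27ac or MYC. Mmrn1 (multimerin 1) had H3K4me3 at its start in both (50.6 in KO and 129 in WT), and its inside H3K27ac peaks in KO (68.3) and WT (56.4) lay at different places. F13a1 (the A chain of factor XIII) had a pair of inside H3K27ac peaks in KO only (62.1 and 67.3) and no other ChIP-seq peak.

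Of the signalling, granule and cytoskeleton proteins, Fermt3 and Plek had H3K27ac at an end in both genotypes. Fermt3 (chr19:6998958-7019469, ID 108101), which encodes kindlin-3, an activator of platelet integrins, had H3K27ac at 688 in KO (the top 0.424% of that list) and 215 in WT (the top 1.88%). H3K4me3 scored 568 in KO and 531 in WT, and MYC 134 in KO with no peak in WT. The KO H3K27ac peak and both H3K4me3 peaks also reach within 1 kb of an end of Stip1, so they cannot be given to Fermt3 alone. Plek (chr11:16971206-17008718, ID 56193), the protein kinase C substrate pleckstrin, had H3K27ac at its start (81.3 in KO and 51.9 in WT) and H3K4me3 (166 in KO and 719 in WT). About 31 kb inside, an H3K27ac peak in KO (230) had no counterpart in WT, a MYC peak in WT (100.2) had none in KO, and the region was open in all 6 libraries. Its inside MYC peaks in KO (60.8) and WT (100.2 and 85.3) did not overlap.

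Rab27b, which acts in dense granule secretion, had H3K4me3 at its upper end in both genotypes (108 in KO and 68.1 in WT) and an inside H3K4me3 peak in both (294 in KO and 289 in WT), with inside H3K27ac in KO only (50.4). Nbeal2, needed for alpha granules, had H3K4me3 in both genotypes at its far end, which is also an end of Nradd (132 in KO and 117 in WT), and inside H3K27ac in KO only (76.3). Its start had H3K4me3 in WT only (99.8). Cd9, a tetraspanin, had H3K4me3 at its start in both genotypes (366 in KO and 380 in WT), inside H3K27ac in both (119 in KO and 74.0 in WT) and inside MYC in KO only (170). Mrvi1, a target of cGMP-dependent kinase, had inside H3K27ac at the same place in both genotypes (123 in KO and 58.2 in WT). Its inside MYC peaks in KO (105 and 86.1) and in WT (51.1) lay at different places.

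Tbxas1 (chr6:38864159-39084590, ID 21391), thromboxane synthase, is the longest of the 31 genes and held the most peaks over the 12 libraries. H3K27ac had 8 inside peaks in KO (between 53.1 and 340) and a pair in WT (50.4 and 83.4). MYC had 4 inside peaks in KO (between 75.9 and 155) and a pair in WT (72.0 and 90.9), and H3K4me3 scored up to 597 in KO and 741 in WT. No ChIP-seq or ATAC-seq peak lay at its ends, and the annotated start used for its promoter lies inside the gene. That inner promoter was under H3K27ac in KO only (206) and under H3K4me3 in both genotypes (398 in KO and 492 in WT). The top H3K4me3 peaks lie within 1 kb of an end of Hipk2. Tubb1, the platelet tubulin, was open in all 6 libraries 3.2 kb into the gene (91.6 and 366 in KO, 218 and 333 in KO MycHet, and 98.2 and 354 in WT) without any ChIP-seq peak. Myl9, a myosin light chain, had only 1 ATAC-seq peak, in the second KO library (76.0).

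Zfpm1 (chr8:122281856-122337862, ID 22761), which encodes the GATA1 cofactor FOG1, had all 4 assays at its start in KO. H3K27ac (54.0) and MYC (117) were KO only there, and H3K4me3 scored 370 in KO and 324 in WT. Inside the gene a pair of H3K27ac peaks (58.1 and 55.3) and a MYC peak at 39.9 kb (154) were also KO only. The start was open in all 6 libraries, at 235 and 464 in KO, 76.1 and 568 in KO MycHet, and 294 and 905 in WT. The H3K27ac scores here lie low in the KO list, the start peak being in the top 91.9%.

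Open chromatin in both libraries of a genotype was found at the ends of equal numbers of members in KO and WT, but not of the same members. Itga2b, Pear1 and Rab27b were in the KO set only, and Gp5, Gp9 and Fermt3 in the WT set only. Each difference rested on the libraries numbered 1, where these peaks scored below the list median (87.2 in KO and 94.7 in WT). Scores were 60.4, 55.2 and 57.25 for the KO-only members, and 92.1, 54.7 and 50.7 for the WT-only members, in the order named. Fermt3 had an inside peak (71.3) in the first KO library, within a region open in all 6 libraries. The share of all genes in 1 set only was not counted, so the difference is not shown to be particular to the members. An ATAC-seq peak lay at an end of 10 members in both KO libraries (32.3%, against 44.6% of all genes), 16 in both KO MycHet libraries (51.6%, against 59.9%) and 10 in both WT libraries (32.3%, against 44.6%). The members' shares lay below those of all genes in each genotype and had the same order. The libraries numbered 1 and 2 had 10 and 23 members in KO (44.7% and 65.7% of all genes), 19 and 20 in KO MycHet (62.0% and 62.3%), and 10 and 25 in WT (44.7% and 66.1%). In KO and WT the difference between the 2 libraries of a genotype was thus larger than that between libraries of the same number. Gp1bb, Vwf and Mrvi1 were open at an end in the second WT and not the second KO library (9.68%, against 2.39% of all genes). Myl9 was open the other way round (3.23%, against 1.99%). No member was open at an end in both KO libraries and neither WT library (0.0277% of all genes were) or in both WT and neither KO (0.0231%). None was open in both KO MycHet and neither KO (0.411%) or in both KO and neither KO MycHet (0.0416%). Pf4, Thbs1, F2r, Nbeal2, Plek, Zfpm1 and Itga2 were open at an end in all 6 libraries (22.6%, against 40.0% of all genes). Ppbp, Gp6, P2ry12, Tbxas1 and F13a1 were open at an end in none (16.1%, against 31.3%), though P2ry12, Tbxas1 and F13a1 had ATAC-seq peaks inside.

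Inside the genes, ATAC-seq peaks lay in 16 and 20 members in KO (17.3% and 42.6% of all genes had them), 18 and 19 in KO MycHet (33.8% and 36.7%), and 14 and 17 in WT (15.7% and 41.4%). Gp9 was the member open inside in both KO libraries and in neither WT library (0.162% of all genes were). Its KO scores there were 68.7 and 153, but in the second WT library a wider peak over the same place reached the far end of the gene (266), so the region itself was open in WT too. No member was open inside in both WT and neither KO (0.0462% of all genes), in both KO MycHet and neither KO (0.351%), or in both KO and neither KO MycHet (0.268%). When the peaks of all 6 libraries were merged, the members held 150 regions. Of these 23 were open in all 6 libraries (15.3%, against 19.8% of the 52379 regions at genes), 22 in the second KO and not the second WT library (14.7%, against 16.5%), and 11 in the second WT and not the second KO library (7.33%, against 13.5%). In the libraries numbered 1, 18 of the 150 regions were open in KO and not in WT, against 6.6% of the regions at genes, and 11 were open in WT and not in KO (7.33%, against 4.93%). The members' shares lay above those of all genes there, and below them in the libraries numbered 2. None of the 150 regions was open in both KO libraries and neither WT library. There were 6 regions open in both KO MycHet libraries and neither WT library (4.0%, against 3.2%), 3 of them in Tbxas1 and 1 each in Itgb3, F13a1 and Rab27b, and each of these was also open in the second KO library.

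Other genes of the pathway were read in the same way. Of 23 regulators of megakaryocyte formation, 11 had H3K27ac at an end in KO and 3 in WT, with 8 in KO only. The KO-only genes with the highest scores were Cxcr4 (367), Runx1 (232), Mkl1 (184) and Mecom (148). MYC lay at an end of 7 of the 23 in KO and 4 in WT, and H3K4me3 of 10 in KO and 13 in WT. Of 55 further platelet genes, 24 had H3K27ac at an end in KO and 7 in WT. In that list 19 were KO only, led by Itgb1 (279), Lcp2 (227), Actn1 (220) and Syk (197), and Muc13 (148) and Ptgs1 (70.0) were WT only. MYC lay at an end of 9 of the 55 in each genotype, and H3K4me3 of 39 in KO and 41 in WT. For comparison with both lists, 25.8% of all genes had H3K27ac at an end in KO only and 0.767% in WT only. Over all genes MYC lay at an end of 22.3% in KO and 10.3% in WT, and H3K4me3 of 54.3% in KO and 52.9% in WT. Inside the genes, H3K27ac lay in 12 of the 23 regulators in KO and 8 in WT. It lay inside 20 of the 55 further platelet genes in KO and 14 in WT. Over all genes these shares were 18.9% in KO and 11.7% in WT. A larger share with inside H3K27ac than over all genes was thus not limited to the 31 members.

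Markers of other blood cells that a sorted fraction could hold were counted beside these. H3K27ac lay at an end of 5 of 17 erythroid markers in KO and 0 in WT, of 3 of 16 myeloid markers in KO and 0 in WT, and of 5 of 12 B cell markers in KO and 0 in WT. It lay at an end of 3 of 14 T and NK cell markers in KO and 1 in WT, and of 3 of 12 endothelial markers in KO and 0 in WT. No ChIP-seq peak of either genotype lay at 6 of the 17 erythroid markers (Hba-a1, Hba-a2, Hbb-bs, Hbb-bt, Slc4a1 and Epb42), 6 of the 16 myeloid (Elane, Ltf, S100a8, S100a9, Cebpe and Ly6g), 4 of the 12 B cell (Ms4a1, Pax5, Rag1 and Cd22), 6 of the 14 T and NK cell (Cd3g, Cd8a, Cd8b1, Ncr1, Klrb1c and Zap70) and 2 of the 12 endothelial markers (Cdh5 and Cldn5). The same held for 2 of the 20 stem cell markers (Ndn and Cdkn1c). The share of all genes without a ChIP-seq peak was not counted, so these counts are not shown to differ from it. The globin genes have near-identical copies, to which reads may not be assigned. MYC lay at an end of 7 of the 17 erythroid markers in KO and of 0 in WT, against 22.3% and 10.3% of all genes. For myeloid markers it was 1 of 16 in KO and 0 in WT, and for B cell markers 0 of 12 in each. For T and NK cell markers it was 3 of 14 in KO and 2 in WT. For endothelial markers it was 2 of 12 in KO and 0 in WT, and for stem cell markers 3 of 20 in KO and 1 in WT. The 20 stem cell markers had H3K27ac at an end of 5 in KO and 1 in WT, H3K4me3 at 14 in each genotype, and an ATAC-seq peak at 19 in the second KO and 18 in the second WT library. H3K27ac was at more ends in KO than in WT in each of these marker lists and in both pathway lists, as it was over all genes (39.6% in KO and 14.6% in WT), and the part of other cell types in the members' counts was not tested.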

How the data were processed

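The 12 deposited lists give, for each peak, a position, a name of the form written by MACS and a score. The score comes from the authors' peak caller, and the labels give no scale for it. Peaks were called per library. Per the submitters' processing notes, the build was mm10, and the tools named were CASAVA, TopHat and Cufflinks. Not given in the sources used here are the tool that aligned the reads of ChIP-seq or ATAC-seq, how the peak caller was set, its version, any input control and the treatment of ATAC-seq reads. Longer lists can come from deeper libraries, and depth is unknown.

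Peaks of the autosomes and X were placed at genes with Python 3.11.15, pandas 2.3.3 and numpy 2.4.6, on positions from a RefSeq table of GRCm38.p6. The placement was tested on simulated data, and its counts equalled those of bedtools 2.31.1 in 12 of 12 libraries. That table has no strand, so both ends of a gene were used. "Start" and "far end" follow RefSeq promoter records, held for 27 members, and Itgb3, Vwf, Thbs1 and Rab27b are given by lower and upper end. The kb positions are the middle of a peak. KO only means a KO peak and no WT peak of that target at the place named. Libraries were grouped by genotype as labelled. The labels do not say whether same-genotype ATAC-seq libraries came from separate mice.

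Every member is accounted for. Scores are given for members with a ChIP-seq peak in 1 genotype only or with all 4 assays at an end in KO, and for other lists at most 4 genes found in KO only and 2 in WT only are named, by score. The members and lists were chosen with earlier results of these data known. The alternatives were window size, overlap, score minimum, lists of equal length, annotated starts alone, and leaving out each ATAC-seq library.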

Additional observations from a re-analysis of the deposited data

How the results depend on the processing

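Of 90 alternative values of 15 counts of members, 72 were within 1.5 times the value reported. With lists cut to equal numbers of peaks, 5 members had H3K27ac at an end and 6 inside in KO, 3 had MYC at an end in KO, and 8 had an ATAC-seq peak at an end in both KO MycHet libraries. With scores of 100 or more, H3K27ac lay at an end of 5 members in KO and 1 in WT and inside 6 in KO and 0 in WT. This minimum takes a larger part of the WT than of the KO H3K27ac list. MYC then lay at an end of 2 in KO and 1 in WT and inside 6 in KO and 2 in WT, and ATAC-seq peaks at an end of 3 in both KO libraries and 3 in both WT libraries. With a window of 2500 bp, MYC lay at an end of 10 members in KO, and at annotated starts alone at 3 in WT. Leaving out 1 ATAC-seq library gave 10 to 23 members open at an end in KO, 19 to 20 in KO MycHet and 10 to 25 in WT, the lower values resting on the short libraries numbered 1. H3K4me3 counts stayed within 1.5 times under every alternative run. The cause of these shifts was not tested beyond the fewer or more peaks that each alternative leaves. No paired analysis was possible because the results come from no test. A peak list cannot show signal below its caller's threshold, so a missing peak is not a missing mark.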
